A study of Mus musculus with 10 samples.

Results

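Ureteric epithelium genes were followed across all 10 RNA-seq libraries of whole kidneys from E13.5 mouse embryos. They were the 9 genes Krt8, Krt18, Cdh1, Gata3, Calb1, Lhx1, Emx2, Tfcp2l1 and Wfdc2, chosen by symbol among 35663 gene entries, and each symbol occurred on 1 entry. The values were FPKM as the authors deposited them. FPKM by definition scales fragments by transcript length and by library size, but how it was computed here, and with which lengths, is not given in the sources used here. The labels give embryos of strain C57/b6 in 3 groups. Wild-type kidneys (n=4) carried no Cre. Foxd1GC control kidneys (n=3) carried the Foxd1GC allele, in which a GFP-Cre fusion sits in the Foxd1 gene, and kept Ntn1. Ntn1SPKO kidneys (n=3) carried the same allele with conditional Ntn1 alleles. Cre is thus made in stromal progenitors and not in the ureteric epithelium, and both Cre groups share 1 replaced Foxd1 allele that wild-type kidneys lack. The labels do not say whether a library came from 1 embryo or from pooled kidneys, nor from which litter. P-values therefore measure the spread between these libraries, which may be technical.

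The ureteric bud is the epithelial outgrowth of the nephric duct. Its tips branch in response to Ret signalling while its stalks form the trunk of the future collecting duct, and the surrounding mesenchyme supplies nephron progenitors and stroma. Krt8 and Krt18 encode partner keratins of simple epithelia, and Cdh1 encodes E-cadherin, the adhesion molecule of epithelial junctions. Gata3, Lhx1, Emx2 and Tfcp2l1 encode transcription factors of the nephric duct lineage, and Lhx1 is also made in early nephron structures. Calb1 encodes the calcium-binding protein calbindin, a classic marker of the ureteric bud, and Wfdc2 encodes a secreted whey acidic protein of epithelia.

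Promoter sequences of 4 members are shown because Krt8 and Krt18 were among the members that differed least, and Lhx1 and Emx2 differed by more, in the library that stood apart for every member (described under the library values). They are RefSeq windows of GRCm38.p6, given from 250 bases before to 20 bases after the start of the gene on its own strand. RefSeq windows were found for 7 members and not for Cdh1 and Calb1. Capitals mark every match on either strand to one of 6 motifs. The E2 box was searched as CAGGTG. The motif of GATA factors was searched as GATAA. The Grainyhead site was searched as CCGGTT. The TATA box was searched as TATAAA. The CCAAT box was searched as its own letters. The GC box was searched as GGGCGG. In Krt8 both strands of the TATA box overlap, and in Emx2 a pair of GC boxes overlap. Krt8 lies at chr15:102004323-102004592 on the minus strand, Krt18 at chr15:102027966-102028235 on the plus strand, Lhx1 at chr11:84525515-84525784 on the minus strand and Emx2 at chr19:59458440-59458709 on the plus strand.
Krt8: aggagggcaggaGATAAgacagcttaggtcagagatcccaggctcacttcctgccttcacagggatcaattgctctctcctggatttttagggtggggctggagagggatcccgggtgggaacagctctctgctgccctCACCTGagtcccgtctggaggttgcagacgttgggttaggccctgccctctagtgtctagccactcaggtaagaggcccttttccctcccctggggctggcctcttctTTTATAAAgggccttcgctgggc
Krt18: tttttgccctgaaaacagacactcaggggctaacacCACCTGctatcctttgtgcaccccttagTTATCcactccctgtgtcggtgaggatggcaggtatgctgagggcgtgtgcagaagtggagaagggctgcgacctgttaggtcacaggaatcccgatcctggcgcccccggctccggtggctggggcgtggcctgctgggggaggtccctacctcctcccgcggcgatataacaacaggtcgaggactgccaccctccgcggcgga
Lhx1: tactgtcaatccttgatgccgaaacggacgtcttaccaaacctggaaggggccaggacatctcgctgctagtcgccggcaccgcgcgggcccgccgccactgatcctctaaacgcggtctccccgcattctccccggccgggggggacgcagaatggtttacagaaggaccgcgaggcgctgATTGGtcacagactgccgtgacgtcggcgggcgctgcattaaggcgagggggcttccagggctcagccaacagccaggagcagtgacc
Emx2: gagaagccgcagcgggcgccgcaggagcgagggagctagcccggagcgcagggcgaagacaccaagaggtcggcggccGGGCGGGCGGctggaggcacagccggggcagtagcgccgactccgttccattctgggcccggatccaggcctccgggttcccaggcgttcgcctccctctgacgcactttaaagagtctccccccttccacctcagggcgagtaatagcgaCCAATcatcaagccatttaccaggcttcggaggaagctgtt

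Over the whole windows, which reach 50 bases past the start, an E2 box was present in 4 of the 7 members with a window (Krt8, Krt18, Tfcp2l1 and Wfdc2). Of all 32851 promoter windows of that length, 20.2% held one. A GATA match was present in 2 members (25.4% of all windows), a TATA box in 2 (13.6%), a CCAAT box in 2 (37.4%), a GC box in 3 (35.7%) and a Grainyhead site in 0 (6.83%). The members' windows had a GC content of 58.0% to 67.3%, against a median of 52.7% over all windows. These matches describe letters only. Krt8 and Krt18 are neighbours on chromosome 15, with 23698 bases between their starts in the GENCODE annotation of GRCm38.

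Rough depth was 27 to 33 M fragments per library (1 M is 1e6), estimated from the step between low FPKM values, since read counts were not used here. FPKM is per length, so levels can be ordered between genes. In wild-type kidneys Wfdc2 was highest, at 115 ± 21.5 FPKM (SD, n=4), followed by Calb1 at 61.0 ± 5.74 and Emx2 at 55.1 ± 5.95 FPKM. Krt18 followed at 39.8 ± 4.60, Gata3 at 37.0 ± 1.54 and Krt8 at 29.6 ± 2.18 FPKM. Lhx1 had 23.0 ± 3.74, Cdh1 21.3 ± 2.73 and Tfcp2l1 14.1 ± 2.54 FPKM. Between neighbours in this order, the wild-type libraries of Calb1 and Emx2 overlapped, as did those of Krt18 and Gata3, of Krt8 and Lhx1, and of Lhx1 and Cdh1.

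Ntn1, the deleted gene, served to check the labels. It was at 27.1 to 46.3 FPKM in wild-type, 24.2 to 51.5 FPKM in Foxd1GC control and 10.7 to 16.3 FPKM in Ntn1SPKO libraries. All 3 Ntn1SPKO libraries were below the other 7 libraries.

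Foxd1GC control replicate 3 was the lowest of the 10 libraries for all 9 members. Over the 14534 genes whose mean across the libraries reached 0.5 FPKM, it was the lowest for 24.1%. The members in this library were at least 2-fold below the median of the other 9 libraries in 8 of 9 cases, against 3.87% of those genes. The keratins and Wfdc2 differed least there, and Lhx1 differed most. Wild-type replicate 3 also stood apart over all genes (lowest for 18.4%, highest for 21.5%), and was highest for 3 members.

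Krt8 was at 29.9, 28.7, 32.5 and 27.3 FPKM in wild-type replicates 1 to 4, at 28.2, 29.1 and 14.0 FPKM in Foxd1GC control replicates 1 to 3 and at 27.5, 27.4 and 32.4 FPKM in Ntn1SPKO replicates 1 to 3. Its partner Krt18, given in the same order, was at 41.3, 39.7, 44.6 and 33.6 FPKM, at 35.5, 41.4 and 18 FPKM, and at 35.9, 36.8 and 41.0 FPKM. For both keratins 9 libraries lay in 1 range shared by the groups, and Foxd1GC control replicate 3 lay 2.04-fold (Krt8) and 2.20-fold (Krt18) below their median. The ratio of Krt8 to Krt18 FPKM was 0.779 in that library and ran from 0.704 to 0.814 in the other 9.

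Cdh1 was at 24.5, 22.5, 18.4 and 19.7 FPKM in wild-type, at 15.8, 19.5 and 4.43 FPKM in Foxd1GC control and at 19.7, 18.8 and 19.2 FPKM in Ntn1SPKO replicates. The third control library was 4.32-fold below the median of the other 9. The Ntn1SPKO libraries lay inside the range of the wild-type libraries, and control replicate 1 lay below it.

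Gata3 was at 38.2, 35.1, 36.5 and 38.3 FPKM in wild-type, at 29.5, 36.2 and 9.10 FPKM in Foxd1GC control and at 36.3, 36.3 and 45.4 FPKM in Ntn1SPKO replicates. Calb1 was at 58.7, 57.4, 69.6 and 58.5 FPKM, at 58.0, 64.9 and 16.4 FPKM, and at 66.4, 74.9 and 67.5 FPKM in the same order. For these 2 genes every Ntn1SPKO library was above every control library, but control replicate 2 was close to the lowest Ntn1SPKO library in both. Foxd1GC control replicate 3 was 3.96-fold (Gata3) and 3.93-fold (Calb1) below the median of the other 9.

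Lhx1 varied most among the control libraries. It was at 24.5, 27.5, 19.1 and 20.9 FPKM in wild-type, at 9.01, 22.8 and 2.44 FPKM in Foxd1GC control and at 16.6, 13.2 and 17.4 FPKM in Ntn1SPKO replicates. Control replicate 3 was 7.54-fold below the median of the other 9, and control replicate 1 was at 39.7% of the wild-type median. All 3 Ntn1SPKO libraries were below all 4 wild-type libraries, whereas the control libraries lay on both sides of the Ntn1SPKO libraries.

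Emx2 was at 56.3, 62.7, 52.5 and 48.8 FPKM in wild-type, at 33.2, 58.5 and 13.1 FPKM in Foxd1GC control and at 51.5, 52.5 and 57.1 FPKM in Ntn1SPKO replicates. Tfcp2l1 was at 16.8, 15.7, 11.6 and 12.3 FPKM, at 11.2, 15.7 and 3.12 FPKM, and at 15.4, 15.2 and 15.3 FPKM in that order. Both had the pattern of Lhx1 in the control group, with replicate 2 near wild-type, replicate 1 lower and replicate 3 lowest (4.00-fold below the median of the other 9 for Emx2 and 4.78-fold for Tfcp2l1). The Ntn1SPKO libraries of Tfcp2l1 spanned only 15.2 to 15.4 FPKM.

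Wfdc2 was at 101, 101, 146 and 112 FPKM in wild-type, at 106, 122 and 59.1 FPKM in Foxd1GC control and at 109, 113 and 96.6 FPKM in Ntn1SPKO replicates. It was the member that differed least in control replicate 3, at 1.84-fold below the median of the other 9. Foxd1GC control replicate 1 was below all 4 wild-type libraries for Cdh1, Gata3, Lhx1, Emx2 and Tfcp2l1, and within their range for the other 4 members.

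**Figure D1:**
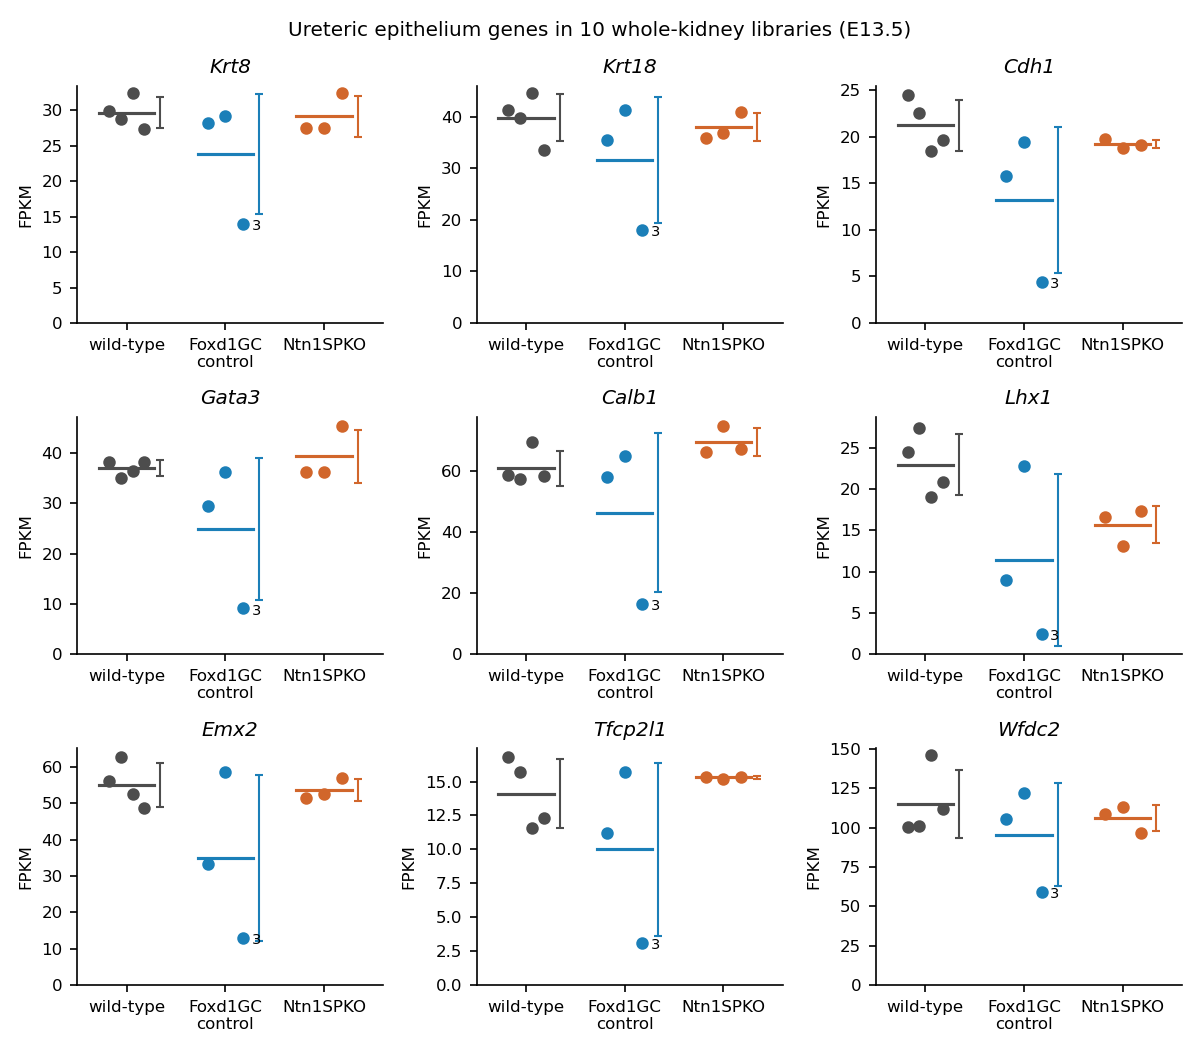
FPKM (vertical axes, from 0) of each member in every library of the 3 groups, with 1 point per library, a horizontal line at the group mean and an error bar of 1 SD beside it. The number 3 marks Foxd1GC control replicate 3, which is the lowest point in all 9 panels.

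Other gene lists were read in the same library. In bulk kidneys, fewer cells of a type and less RNA per cell cannot be told apart. Of 27 general epithelial and junction genes that passed this 0.5 FPKM limit (of 28 listed), 25 were lowest in Foxd1GC control replicate 3, with a median difference of −1.20 on the log2(FPKM+0.1) scale from the median of the other 9 libraries. The median over the 9 members was −1.98. Epcam, an epithelial adhesion molecule, was at 22.9 FPKM there and at 57.1 to 81.7 FPKM elsewhere. Cdh16, the kidney cadherin, was at 9.97 FPKM there and at 32.0 to 51.0 FPKM elsewhere.

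Among 15 other ureteric and collecting duct genes above that limit, 13 were lowest in that library. Pax8, a transcription factor of kidney epithelia, was at 5.95 FPKM there against 18.4 to 31.8 FPKM elsewhere. The 11 ureteric tip genes had a smaller median difference of −0.54, and 8 were lowest there. Ret, the receptor of the tips, was at 4.09 FPKM against 14.1 to 20.9 FPKM in the other libraries. Wnt11, a Wnt ligand of the tips, was at 20.5 FPKM, inside its range of 19.1 to 23.3 FPKM elsewhere. Etv4, a target of Ret signalling, was at 55.8 FPKM, also inside its range of 52.2 to 63.2 FPKM. Wnt11 and Etv4 were named after their values had been seen, and tip genes of this list such as Etv4 are also made outside the ureteric bud.

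Skeletal muscle genes were highest in the library in which the members were lowest. All 14 listed muscle genes above the limit had their highest value there, with a median log2 difference of 3.06. The summed level of the 20 listed muscle genes was 1053 FPKM there, 130 to 228 FPKM in wild-type, 234 and 75.6 FPKM in control replicates 1 and 2 and 25.6 to 88.9 FPKM in Ntn1SPKO libraries. None of the 20 was listed at 0 in that library. Mylpf, a light chain of fast muscle myosin, was at 545 FPKM, and Myog, the myogenic factor myogenin, was at 30.04 FPKM against 0.379 to 5.62 FPKM elsewhere. Stromal collagens were high in control replicates 1 and 3, the libraries with the lowest summed level of the members (326 and 140 FPKM, against 371 to 431 FPKM elsewhere). The 15 stromal genes summed to 2600 and 2880 FPKM in these 2 libraries and to 1653 to 2003 FPKM in the other 8. All 12 G2/M genes were lowest in control replicate 3, with a median log2 difference of −0.53. Of 10 nephron progenitor genes 5 were highest and 2 lowest there, and Six2 was at 96.4 FPKM against 63.1 to 92.5 FPKM. The part of these lists in the members' values was not tested.

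Of 14 nephron epithelium genes above the limit, 9 were lowest in control replicate 3. Wnt4, which drives the first epithelial nephron structures, was at 2.50 FPKM there and at 8.33 to 18.9 FPKM elsewhere. The summed level of 17 neural genes in that library (35.3 FPKM) was inside the range of the others. The 15 markers of other epithelia summed to 7.24 FPKM there and to 1.66 to 5.19 FPKM elsewhere. Krt5, a keratin of stratified epithelia, had its highest level there, at 2.02 FPKM. All 11 gonad and adrenal genes, and 3 of 5 mesothelial genes, had a mean under 0.5 FPKM.

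**Figure D2:**
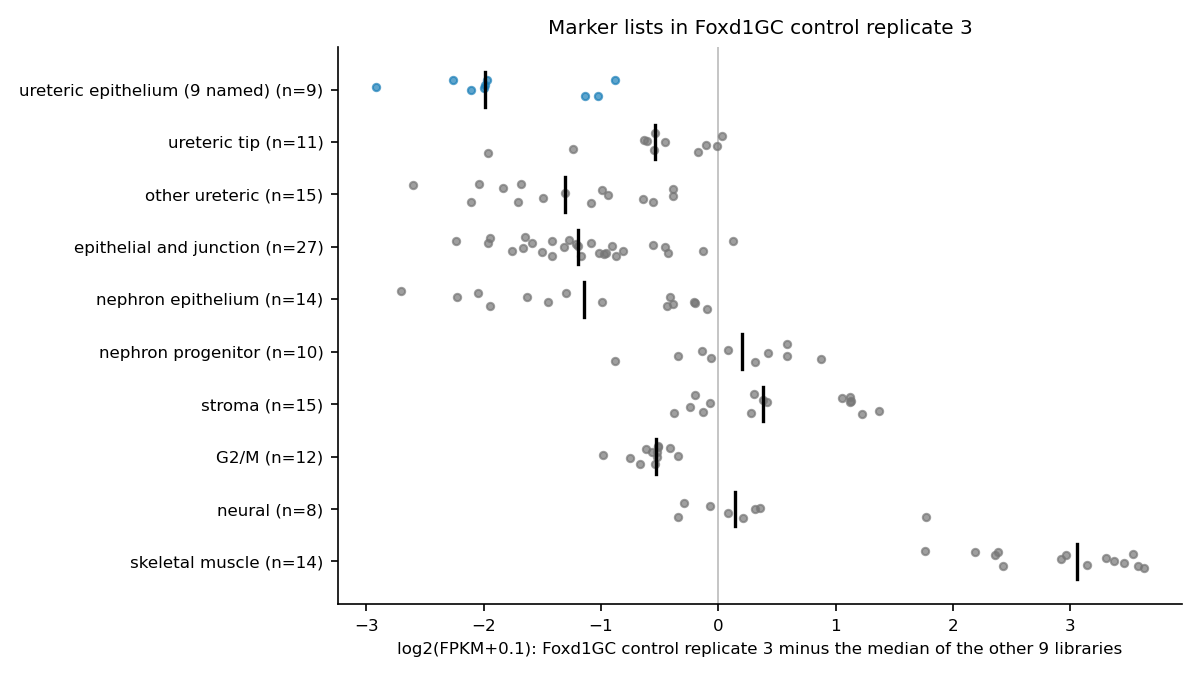
Each point is 1 gene whose mean reached 0.5 FPKM, and the horizontal axis gives its log2(FPKM+0.1) in Foxd1GC control replicate 3 minus the median of the other 9 libraries, and black lines are medians of the lists named on the vertical axis. The 9 members have a median of −1.98 and the 14 skeletal muscle genes one of 3.06.

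**Figure D3:**
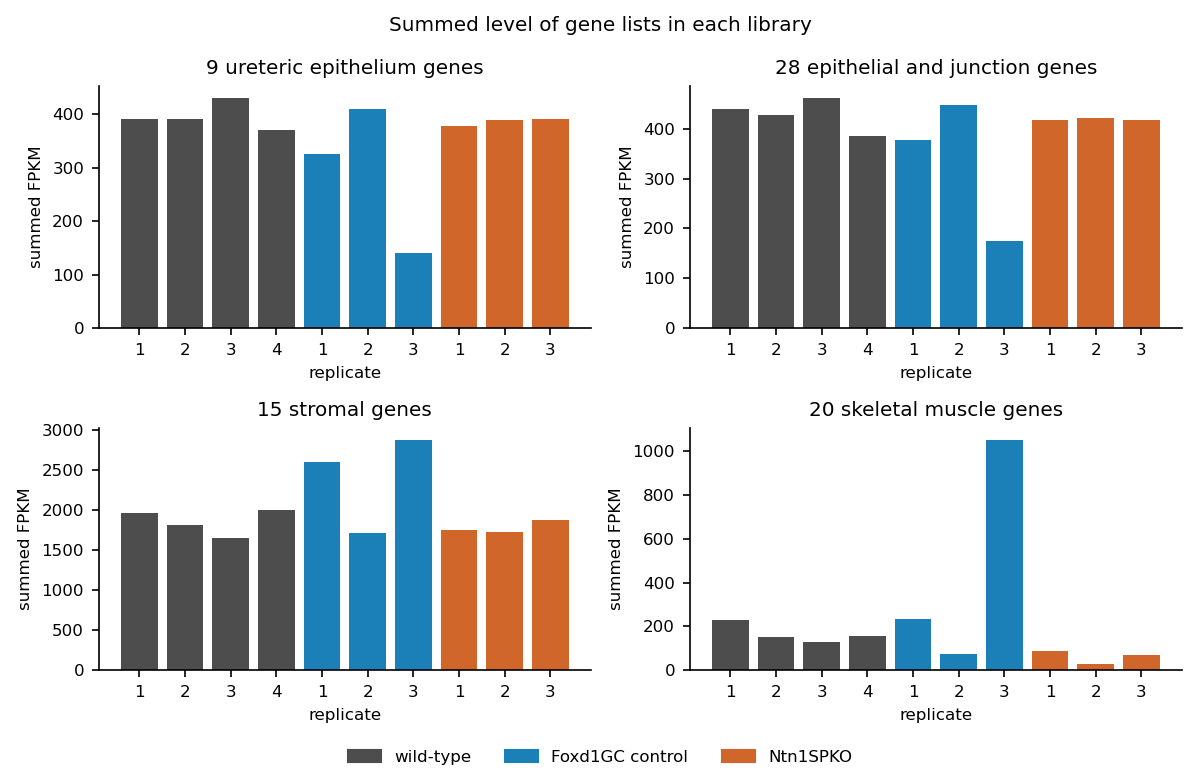
Bars give the summed FPKM of the members and of 3 marker lists in each library, numbered by replicate and coloured by group. Foxd1GC control replicate 3 has the lowest bar for the members (140 FPKM) and the highest for skeletal muscle (1053 FPKM).

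To see which members changed more than other epithelial genes of the same library, the mean log2(FPKM+0.1) of the 28 epithelial and junction genes was subtracted from each member. That mean was 1.84 in Foxd1GC control replicate 3, which is 1.16 below the median of the other 9 libraries. Relative to it, Krt8, Krt18 and Wfdc2 in control replicate 3 lay inside the range of the other 9 libraries. The other 6 members were still lowest in that library, from 0.83 below the median of the other 9 for Calb1 to 1.76 below for Lhx1. These values show unequal differences among epithelial genes within a library.

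Between groups, the relative value of Lhx1 was 0.53 lower (log2) in Ntn1SPKO than in wild-type kidneys, and the groups did not overlap (exact permutation p=0.0571, two-sided). Such relative values were lower in every Ntn1SPKO library for 2.92% of all genes tested. Relative to the epithelial genes, Cdh1, Gata3, Calb1 and Tfcp2l1 were higher in every Ntn1SPKO than in every Foxd1GC control library, by 0.39, 0.47, 0.41 and 0.49. This held for 0.557% of all genes tested. The subtraction itself raises other genes in control replicate 3, where the epithelial mean is low. That share is therefore small by construction and is no fair background for epithelial genes such as the members. The differences of these 4 members were 0.10, 0.23, 0.15 and 0.17 without control replicate 3. With all libraries the exact permutation p was 0.1 for each of these 4, which is the smallest that 3 libraries against 3 allow. With 9 members and 3 comparisons, 27 relative differences were computed, and none of these p-values was adjusted.

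**Figure D4:**
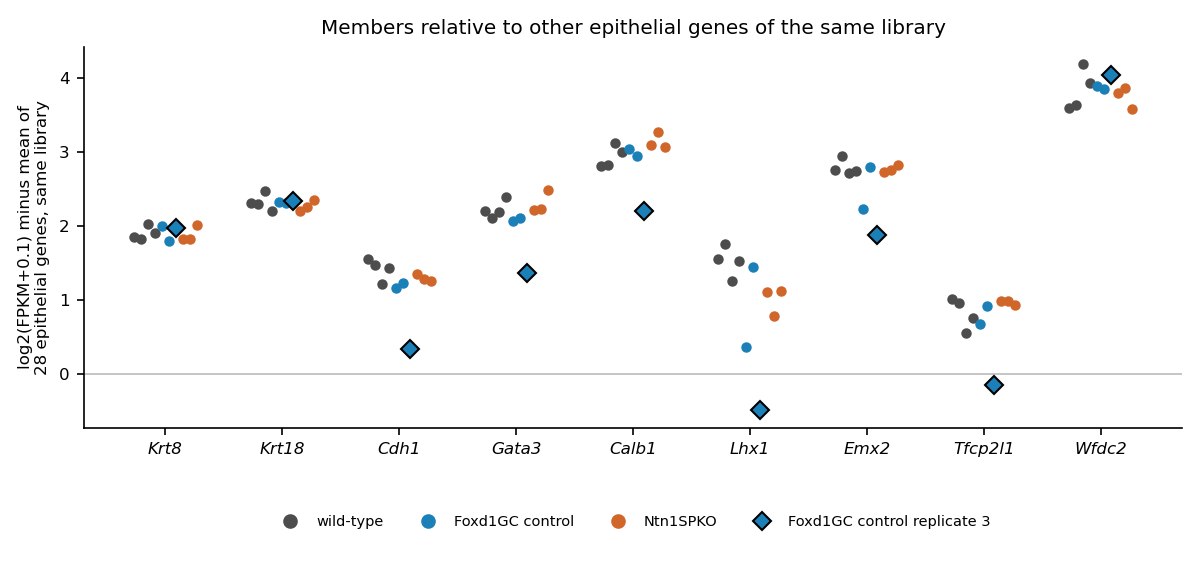
The vertical axis gives each member's log2(FPKM+0.1) minus the mean of 28 epithelial and junction genes in the same library, with 1 point per library coloured by group. The diamond of Foxd1GC control replicate 3 is level with the other points for Krt8, Krt18 and Wfdc2 and below them for the other 6 members.

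Ntn1SPKO kidneys were compared with Foxd1GC control kidneys to ask whether loss of stromal Ntn1 goes with a change in the ureteric epithelium. Differences were fitted by limma on log2(FPKM+0.1) over 14550 genes, and calls needed a Benjamini-Hochberg adjusted p under 0.1 and a change of 2-fold or more. None of the 9 members was called (0.055% of all genes were). At an unadjusted p under 0.05 the count was 0 of 9 as well, where 10.7% of all genes had one. All 9 estimates were above 0, with a median log2 fold change of 0.81, against 0.0067 over all genes tested. Groups did not overlap for 2 of 9 members, Gata3 and Calb1, and for 19.9% of all genes.

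The largest estimate was that of Lhx1, at 0.96 on the log2 scale with a standard error of 0.74 (limma adjusted p=0.558). Tfcp2l1 had 0.89 (standard error 0.56, limma adjusted p=0.493), Gata3 0.87 (0.50, limma adjusted p=0.473) and Emx2 0.87 (0.50, limma adjusted p=0.475). Calb1 had 0.81, Cdh1 0.79, Krt8 0.36, Krt18 0.34 and Wfdc2 0.21, with limma adjusted p-values from 0.491 to 0.702. The exact permutation p was 0.1 for Gata3 and Calb1, the smallest possible here, and 0.3 to 0.8 for the other members.

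These estimates rested on 1 library. Without Foxd1GC control replicate 3 the median fell to 0.13, and 7 of 9 estimates were above 0. Emx2 then had 0.28 (standard error 0.23), Gata3 0.26 (0.14), Tfcp2l1 0.20 (0.15), Calb1 0.18 (0.083), Cdh1 0.13 (0.10), Lhx1 0.12 (0.39) and Krt8 0.018 (0.094) on the log2 scale. Krt18 had −0.018 (0.097) and Wfdc2 −0.10 (0.097). Limma adjusted p-values without that library were 0.673 to 0.969. Y-linked transcripts were present in all 3 Ntn1SPKO libraries but in only 1 of 3 control libraries (replicate 2). With their presence as a covariate, the median estimate was −0.036. That estimate sets the Ntn1SPKO libraries against control replicate 2 alone, the only control library with these transcripts.

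In the same comparison, 0 genes of the 12 other lists were called by limma, and 8 had an unadjusted p under 0.05. Of 15 other ureteric genes tested all had estimates above 0 (median 0.65), among them Tfap2a at 0.85, Pax8 at 0.77 and Elf3 at 0.72. Their median was 0.12 without control replicate 3. Of 11 tip genes 10 had estimates above 0 (median 0.11), among them Ret at 0.94, Gfra1 at 0.37 and Etv5 at 0.35. Of 27 epithelial genes 26 did (median 0.42), led by Cdh16 at 0.85, Ovol1 at 0.81, Dsp at 0.73 and Esrp1 at 0.69. Wnt4 had the largest estimate of the nephron epithelium genes, at 1.36, and 0.62 without control replicate 3. All 15 muscle genes tested had estimates below 0 (median −2.14, or −1.29 without control replicate 3), and 5 had an unadjusted p under 0.05.

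Foxd1GC control kidneys were compared with wild-type kidneys to see what the Foxd1GC allele alone goes with. None of the 9 members was called (0.00685% of 14594 genes were). All 9 estimates were below 0, with a median log2 fold change of −0.75, against −0.0072 over all genes. Lhx1 alone had an unadjusted p under 0.05, where 7.06% of all genes did. Groups overlapped for all 9 members, whereas they did not for 8.09% of all genes. Lhx1 was estimated at −1.50 with a standard error of 0.63 (limma adjusted p=0.665). Cdh1 had −0.92, Emx2 −0.90, Gata3 −0.79, Tfcp2l1 −0.75, Calb1 −0.62, Krt18 −0.41, Krt8 −0.39 and Wfdc2 −0.31, with limma adjusted p-values from 0.665 to 0.707.

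Without Foxd1GC control replicate 3 the median was −0.070. Lhx1 then had −0.66 (standard error 0.35), Emx2 −0.31 (0.22), Cdh1 −0.27 (0.15) and Gata3 −0.18 (0.10), and the other 5 members lay between −0.070 and 0.012. The limma adjusted p was 1.00 for each member.

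Ntn1SPKO and wild-type kidneys were compared without use of the control libraries. None of the 9 members was called (0.0485% of 14432 genes were). The median log2 fold change was −0.031, against 0.0034 over all genes, with 6 estimates below and 3 above 0. Lhx1 alone had an unadjusted p under 0.05 (5.76% of all genes did), and it alone had groups that did not overlap (7.10% of all genes). Lhx1 measured 23.0 ± 3.74 FPKM (SD, n=4) in wild-type and 15.7 ± 2.24 FPKM (n=3) in Ntn1SPKO kidneys. That is −0.54 on the log2 scale, with a standard error of 0.15 (limma adjusted p=0.515), and the exact permutation p was 0.0571, where 3 libraries against 4 allow 0.0286 at the smallest. Over the alternatives the estimate of Lhx1 ran from −0.63 to −0.29 with limma adjusted p-values from 0.325 to 0.995. The −0.29 came with Y-linked transcripts as a covariate. These were present in all Ntn1SPKO libraries but in wild-type only in replicate 3, on which that estimate rests.

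The other 8 members lay between −0.13 and 0.19 against wild-type kidneys. Calb1 had 0.19 (standard error 0.087), Cdh1 −0.13 (0.10), Tfcp2l1 0.13 (0.14), Wfdc2 −0.10 (0.14), Gata3 0.081 (0.092), Krt18 −0.065 (0.10), Emx2 −0.031 (0.094) and Krt8 −0.026 (0.089). Limma adjusted p-values of these 8 were 0.885 to 0.973. The 3 comparisons share groups of libraries, so their values stand side by side and are not separate evidence.

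Nephron epithelium genes were read in this comparison too, since Lhx1 is also made in early nephrons. Of 14 nephron epithelium genes tested 12 had estimates below 0 (median −0.33), and 7 of these had an unadjusted p under 0.05. Wnt4 was the only gene of the list with such a p and an estimate above 0. It was at 18.6 FPKM in Ntn1SPKO and 14.5 FPKM in wild-type kidneys, an estimate of 0.37. Of 15 other ureteric genes 11 had estimates above 0 (median 0.11). Of 27 epithelial genes 14 had estimates above 0 (median 0.016). Of 11 tip genes 9 did (median 0.096), and Ret had 0.31, with all 3 Ntn1SPKO libraries above all 4 wild-type libraries. No gene of these lists was called. All 14 muscle genes tested had estimates below 0 (median −1.65), and 10 had an unadjusted p under 0.05. The nephron epithelium list was also low in Foxd1GC control against wild-type kidneys. All 14 genes tested had estimates below 0 (median −0.76), and 7 had an unadjusted p under 0.05 (7.06% of all genes). Without Foxd1GC control replicate 3 all 14 were still below 0 (median −0.36), and 6 had such a p (538 of 14526 genes). Between Ntn1SPKO and Foxd1GC control kidneys 12 of 13 had estimates above 0 (median 0.19).

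**Figure D5:**
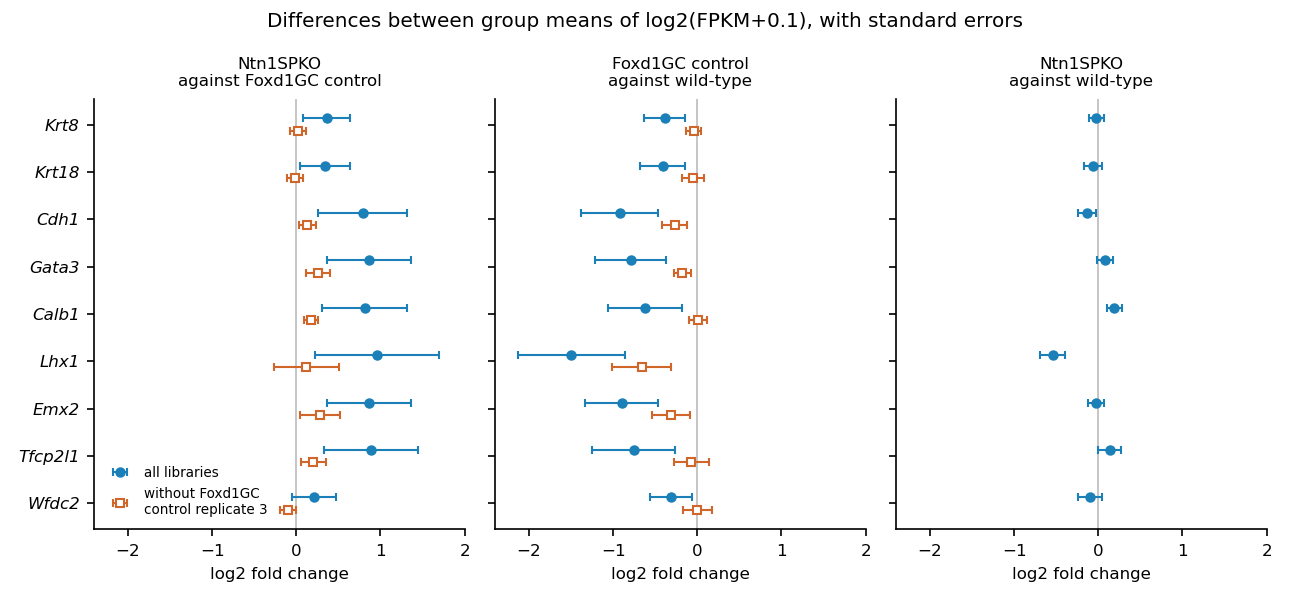
The horizontal axes give the log2 fold change of each member in the 3 comparisons, with bars of 1 standard error. Filled circles use all libraries of both groups and open squares leave out Foxd1GC control replicate 3, which brings most members close to 0 (a median of 0.13 in place of 0.81 against controls).

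The genes most like the members were found by Pearson correlation over the 10 libraries with the mean z-score of the 9 members. They were Grb7 (r=0.995), Prss8 (0.994), Cldn6 (0.993), Epcam (0.992) and Tcf7 (0.991), and the members themselves had r from 0.872 (Wfdc2) to 0.982 (Gata3). All 10 points share 1 normalization, and the correlations rest on Foxd1GC control replicate 3. Grb7, an adaptor of receptor tyrosine kinases, was at 4.65 FPKM there and at 13.3 to 17.0 FPKM elsewhere. Without that library, members had r from 0.184 (Wfdc2) to 0.910 (Emx2) over 9 libraries, although each member is part of the mean. The 5 other genes most like the members were then Sik2 (r=0.954), Fli1 (0.951), Ccdc66 (0.948), Scamp1 (0.942) and Chek2 (0.941). None of these 5 was on a marker list.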

How the data were processed

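RNA-seq values of 10 whole-kidney libraries (E13.5) were analysed by the groups in the deposited labels. According to the methods, the authors quantified reads with Salmon against coding sequences of Ensembl GRCm38 and imported them to genes with tximport. The deposited values are FPKM, and how FPKM was computed is not given in the sources used here. The submitters' processing notes name bcl2fastq 2.17.1.14. Median-of-ratios factors were 1.002 in all libraries, so the values already stood on that scale and were used as they are. Median-of-ratios scaling, counted among the alternatives, could therefore change almost nothing. Reads that fit several related genes may be split between them.

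The tests used limma 3.58.1 (R 4.3.3; eBayes with intensity trend, Benjamini-Hochberg) on log2(FPKM+0.1), a scale that understates changes of low genes. Genes entered a test where their mean in its libraries reached 0.5 FPKM. Single members were also tested by exact permutation, two-sided, in Python 3.11.15. Depth was estimated from the most frequent product of FPKM and coding length among low values, and this estimator replaced a window-based one after the data had been seen. The steps were tested on simulated data. Members and the 12 marker lists were chosen with earlier results of these data known. Named genes were the members, Ntn1, up to 4 genes per list with the largest difference between Ntn1SPKO and Foxd1GC control kidneys, and the 5 genes most like the members. Of the genes this rule names, 2 are not reported here. Wnt11, Etv4 and Six2 were named after their values had been seen. List counts, likeness and relative values without Foxd1GC control replicate 3 were added then too.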

Additional observations from a re-analysis of the deposited data

Results flagged for a closer look

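Calb1 in wild-type replicate 3, at 69.6 FPKM, lay far from the other 3 wild-type libraries, which were at 57.4 to 58.7 FPKM. Its gap to the nearest of them was too large a part of the group's range for Dixon's 95% limit. Such a gap turns up by chance in about 1 in 20 groups, and 9 members were checked in the wild-type group. The Calb1 level of that library was inside the range of the 3 Ntn1SPKO libraries (66.4 to 74.9 FPKM). Groups of 3 libraries were not checked in this way, so Foxd1GC control replicate 3 could not be picked out by it.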

How the results depend on the processing

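Over 20 alternatives for Ntn1SPKO against Foxd1GC control kidneys and 21 for each comparison with wild-type kidneys, no member was called, with 1 exception. Between Foxd1GC control and wild-type kidneys, Lhx1 passed where the limit was an unadjusted p of 0.1 and a change of 2-fold or more. So did 207 of 14594 genes. The causes of the differences given here were not tested. With Y-linked transcripts as a covariate, the median log2 fold change between Ntn1SPKO and Foxd1GC control kidneys was −0.036. That fit rests on Foxd1GC control replicate 2. In it Krt8 had −0.0061, Krt18 −0.13, Cdh1 −0.017, Lhx1 −0.54, Emx2 −0.12, Tfcp2l1 −0.036 and Wfdc2 −0.20. Leaving out 1 library gave medians of 0.13 to 1.19 (without Foxd1GC control replicate 3 and replicate 2). It gave 0 to 4 members with an unadjusted p under 0.05. There were 4 without Foxd1GC control replicate 2, where 3428 of 14564 genes had such a p. The ranges were −0.018 to 0.58 for Krt18 and −0.10 to 0.42 for Wfdc2, lowest without Foxd1GC control replicate 3.

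Between Ntn1SPKO and wild-type kidneys, members with an unadjusted p under 0.05 numbered 2 with quantile normalization (842 of 14503 genes had one). They numbered 2 with the same total in every library (621 of 14440 genes) and 0 with all 10 libraries in one fit (636 of 14534 genes). With 1 library left out they numbered 1 to 2. There were 2 without wild-type replicate 3, where 1059 of 14399 genes had such a p. Estimates near 0 changed sign. With the same total Krt8 had 0.030 and Emx2 0.025. With Y-linked transcripts as a covariate, which rests on wild-type replicate 3, Cdh1 had 0.062, Calb1 −0.0022 and Emx2 0.032. Emx2 had 0.034 without wild-type replicate 2, Krt8 0.019 and Wfdc2 0.021 without wild-type replicate 3, Krt8 0.014 without Ntn1SPKO replicate 1 or 2 (lowest −0.11 and −0.16 for Krt8 and Wfdc2 with 1 library left out) and Gata3 −0.026 without Ntn1SPKO replicate 3.

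Between Foxd1GC control and wild-type kidneys, members with an unadjusted p under 0.05 numbered 0 with no filter and with the same total. They also numbered 0 with no intensity trend and with robust eBayes. They numbered 3 with all 10 libraries in one fit, where 1496 of 14534 genes had such a p. With 1 library left out they numbered 0 to 6. There were 6 without Foxd1GC control replicate 2, where 2279 of 14626 genes had such a p, and 0 without any other. The median ran from −1.17 to −0.070 with 1 library left out, and Calb1 from −0.98 to 0.012, highest without Foxd1GC control replicate 3. The limma adjusted p of Wfdc2 between Ntn1SPKO and wild-type kidneys was 0.0378 with Y-linked transcripts as a covariate (−0.47, less than a 2-fold change). That estimate rests on wild-type replicate 3, where Wfdc2 was highest (146 FPKM). With this covariate 3249 of 14432 genes had a limma adjusted p under 0.1, against 10 without it.

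Same-numbered libraries did not deviate together (r=−0.047 to 0.076 over genes), so the numbers were not taken as pairs. With the replicate number as a block the medians were 0.81, −0.087 and −0.77 in the order above, 0 members were called, and 8 genes called between Ntn1SPKO and Foxd1GC control kidneys became 4. With 3 or 4 libraries in a group, depth limits these genes less than the spread between libraries.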
